A study of Mus musculus with 9 samples.

Results

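Fibroblast growth factors (FGFs) are secreted proteins that bind receptor tyrosine kinases at the cell surface together with heparan sulphate, and the 8 genes described here are 4 ligands, Fgf4, Fgf5, Fgf8 and Fgf15, and the 4 receptors, Fgfr1, Fgfr2, Fgfr3 and Fgfr4. They were found by assigning the transcripts of the deposited tables to genes, and are 8 of 35896 genes. The cells were E14, 1 established line of mouse embryonic stem cells, grown in medium with serum on gelatin without feeder cells. Each of the 3 groups had 3 libraries of poly-A RNA. In the first group, control with LIF2i, cells stayed in LIF, a cytokine that sustains self-renewal, with 1 µM PD0325901 and 1 µM CHIR99021. The former inhibits MEK, the kinase that activates ERK in the relay from FGF receptors, and the latter inhibits glycogen synthase kinase 3 beta. In the second group, control without LIF2i, all of these were removed for 72 h. In the third group, CK666 without LIF2i, 80 µM CK666 was present through the same 72 h. CK666 inhibits the Arp2/3 complex, which builds branched actin networks, and came in DMSO. No label tells whether the controls got this solvent, so drug and solvent cannot be told apart. The groups with and without LIF2i differ in LIF and both inhibitors at once, which cannot be told apart either.

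A bound receptor phosphorylates the adaptor FRS2, which recruits GRB2, SHP2 and SOS and passes the signal through RAS, RAF and MEK to ERK. ERK in turn induces inhibitors of the same pathway, such as Sprouty proteins and dual-specificity phosphatases. In mouse pluripotent cells Fgf4 is the ligand known for driving ERK in an autocrine way, and Fgf5 is a marker of the epiblast after implantation and of cells that leave the naive state. The third immunoglobulin-like domain of receptors 1 to 3 can be encoded by either of a pair of alternative exons, IIIb or IIIc, and this choice is known to set which ligands bind.

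One exon of each kind is shown because the results on receptor isoforms rest on the choice between them: the IIIc exon of Fgfr3 and the IIIb exon of Fgfr2, the receptor with IIIb counts in all libraries of replicates 2 and 3. Both are coding exons of GRCm38 in the GENCODE M21 annotation, read 5′ to 3′ on the strand of the gene, and are in lower case because no part of them is singled out. The IIIc exon of Fgfr3 lies at chr5:33732117-33732261 on the plus strand, and the IIIb exon of Fgfr2 at chr7:130199758-130199905 on the minus strand.
Fgfr3 IIIc: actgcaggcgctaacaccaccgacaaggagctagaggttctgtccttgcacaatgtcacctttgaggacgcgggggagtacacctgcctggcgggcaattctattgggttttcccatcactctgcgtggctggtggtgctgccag
Fgfr2 IIIb: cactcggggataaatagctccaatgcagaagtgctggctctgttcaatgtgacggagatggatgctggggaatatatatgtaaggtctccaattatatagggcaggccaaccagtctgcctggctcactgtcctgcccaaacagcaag

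Another stretch is shown for Fgf4, whose enhancer in the last exon is textbook knowledge for joint binding of SOX2 and OCT4. It lies in the untranslated part of exon 3 of the transcript Fgf4-201, at chr7:144864394-144864411 of GRCm38 on the plus strand. The capitals mark a SOX motif followed, after 3 bases, by a POU motif.
Fgf4 composite site: CTTTGTTtggATGCTAAT
The letters searched were CTTTGTTNNNATGCTAAT on both strands, and they occurred in transcripts of 1 of 55450 annotated genes (0.0018%), which is Fgf4 itself. These letters are those of the Fgf4 site itself, so its match was given in advance and the share is no test. A match of letters is a description and no measure of binding. On withdrawal Sox2 fell, with a log2 fold change of -1.84 (SE 0.26, adjusted p 5.9e-04 by edgeR). Pou5f1, which encodes OCT4, was not called, at -0.24 (SE 0.23, adjusted p 0.42 by edgeR). Whether the level of either gene bears on Fgf4 was not tested.

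Library totals ran from 16894327 to 22550952 estimated counts, so that 3 counts, taken as the floor of detection, were worth 0.133 to 0.178 CPM (counts relative to library size). The replicate 1 libraries stood apart: they showed 15690 to 17605 genes above 0, and replicates 2 and 3 showed 18166 to 18749, and their part in the results was not tested beyond leaving them out. The series text calls the replicates paired, and the replicate number was therefore a block. CPM values below are scaled by TMM, and values are given in the order of replicates 1, 2 and 3. Differences are log2 fold changes with standard errors (SE) from edgeR's quasi-likelihood test, with p-values adjusted by Benjamini-Hochberg over 14648 genes, and a gene was called at an adjusted p under 0.05. All 8 genes passed the filter on low counts, and Fgf5, Fgf8 and Fgfr3 did so with very few counts in the group with LIF2i. In bulk RNA, fewer cells that express a gene and less RNA per cell cannot be told apart.

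After 72 h without LIF2i, Fgf4 fell 4.3-fold, and Fgf5, Fgf8 and Fgf15 rose from low or undetected levels. Of the 8 genes, 7 were called, 6 raised and 1 lowered, where 40.7% of all genes tested were called, 21.1% raised and 19.7% lowered. Groups did not overlap in 7 of the 8 genes, against 40.7% of all. The median log2 fold change was 2.01 over the 8 genes and 0.01 over all genes tested. The receptors Fgfr1, Fgfr2 and Fgfr3 rose, and Fgfr4 was not called.

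Fgf4 (chromosome 7, 144847367 to 144865243) stood at 356, 519 and 440 CPM with LIF2i and at 110, 119 and 79.0 CPM without. The lowest library with LIF2i was above the highest without it, and all 3 pairs moved in the same direction. The fold change on the log2 scale came to -2.11 (SE 0.18, edgeR adjusted p 3.4e-05), from 438 ± 81.1 to 103 ± 21 CPM (SD, n = 3 each). Within the pairs the level with LIF2i was 3.23, 4.36 and 5.57 times the level without.

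Fgf5 (chromosome 5, 98254184 to 98277030) had 0, 0 and 1 counts in the libraries with LIF2i, and 900, 1170 and 707 counts in those without, or 43.4, 60.7 and 38.2 CPM. With 1 count in the denominator the size of the rise is poorly bounded: the ratio of the summed and scaled counts was 2655 with a 95% counting interval from 476 to 104900. The gene was called as raised (edgeR adjusted p 1.9e-05), and the groups did not overlap. Nearly all counts, 96.3%, were on the full-length transcript Fgf5-201, and the remainder on Fgf5-202, a shorter variant.

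Fgf8 (chromosome 19, 45736798 to 45742915), a ligand of the gastrulating embryo and of signalling centres in the brain, had 0, 12 and 8 counts with LIF2i, and 146, 24 and 166 counts without, or 7.04, 1.25 and 8.96 CPM. Replicate 2 moved little, by a factor of 1.99, while replicate 3 moved by 18.4 and replicate 1 started from 0 counts. The difference in log2 units was 3.69 (SE 0.95, edgeR adjusted p 0.013). The call was lost when all replicate 3 libraries were left out (3.39, edgeR adjusted p 0.16), or replicate 3 of the group with LIF2i (3.40, adjusted p 0.075) or without it (3.55, adjusted p 0.063). The size also moved, to 2.72 without replicate 1 and 5.31 without replicate 2 (edgeR adjusted p 0.013 and 0.0034). Counts of Fgf8 were spread over 6 annotated transcripts, with 47.5% on Fgf8-206.

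Fgf15 (chromosome 7, 144896531 to 144900953), the mouse counterpart of FGF19, lies next to Fgf4 on the same strand. It stood at 2.70, 2.77 and 3.10 CPM with LIF2i and at 19.6, 12.6 and 13.8 CPM without. These neighbours thus moved in opposite directions in all 3 pairs. For Fgf15 the log2 difference came to 2.36 (SE 0.38, edgeR adjusted p 0.0012). Of its exonic bases 25.7% are shared with Gm26793 and Gm39119 on the opposite strand, so part of its counts could belong to them.

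Fgfr1 (chromosome 8, 25513654 to 25575718), the receptor with the highest TPM in every group, had the smallest fold change of the called receptors, from 90.4, 128 and 112 CPM to 175, 190 and 202 CPM. Its groups did not overlap. The fold change on the log2 scale came to 0.78 (SE 0.13, edgeR adjusted p 0.0013), from 110 ± 19.1 to 189 ± 13.3 CPM (SD, n = 3 each).

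Fgfr2 (chromosome 7, 130162451 to 133123350), known for its part in primitive endoderm and epithelia, went from 2.16, 3.08 and 1.34 CPM to 4.58, 17.5 and 15.5 CPM. Replicate 1 rose 2.12-fold, and replicates 2 and 3 rose 5.69-fold and 11.6-fold. The difference in log2 units was 2.36 (SE 0.44, edgeR adjusted p 0.0027). The annotated span of this gene is long because it includes transcripts that reach Ctbp2, and 3.04% of its exonic bases are shared with that gene.

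Fgfr3 (chromosome 5, 33721674 to 33737068) had 10, 21 and 17 counts with LIF2i and 33, 57 and 73 counts without, or 0.491, 1.10 and 1.03 CPM against 1.59, 2.96 and 3.94 CPM. The fold change on the log2 scale came to 1.67 (SE 0.38, blocked edgeR adjusted p 0.0074, unblocked 0.076). This rise rests on reads not corrected for transcript length: with a length correction it was 0.58 (edgeR adjusted p 0.43). With LIF2i, 88.4%, 19.2% and 34.1% of the counts of Fgfr3 were assigned to annotated transcripts shorter than 1000 bases, against 19.0%, 1.25% and 10.3% without. The call was also lost without replicate 2 (adjusted p 0.051) and without replicate 3 (adjusted p 0.11), and 13.9% of the exonic bases are shared with G630022F23Rik on the opposite strand.

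Fgfr4 (chromosome 13, 55152640 to 55168759) stood at 4.62, 10.1 and 7.47 CPM with LIF2i and at 6.03, 4.78 and 4.59 CPM without. Replicate 1 was slightly higher without LIF2i, and replicates 2 and 3 were lower, so the groups overlapped. The difference in log2 units was -0.38 (SE 0.42, 95% interval -1.33 to 0.58, edgeR adjusted p 0.51). Without the replicate 1 libraries it was -0.86 (edgeR adjusted p 0.037), and with the length correction -1.02 (edgeR adjusted p 0.0997). By TPM summed over its transcripts, Fgfr4 went from 6.28, 5.02 and 4.79 to 3.10, 3.05 and 1.97, lower in 3 of 3 pairs without overlap. This separation rests on short transcripts: Fgfr4-202 held 4.23 TPM in replicate 1 with LIF2i, on 17 counts. The main transcript Fgfr4-201, with 97.8% of the counts, went from 2.05, 3.82 and 2.93 to 3.10, 1.96 and 1.97 TPM. It was higher without LIF2i in replicate 1, and its groups overlapped.

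**Figure D1:**
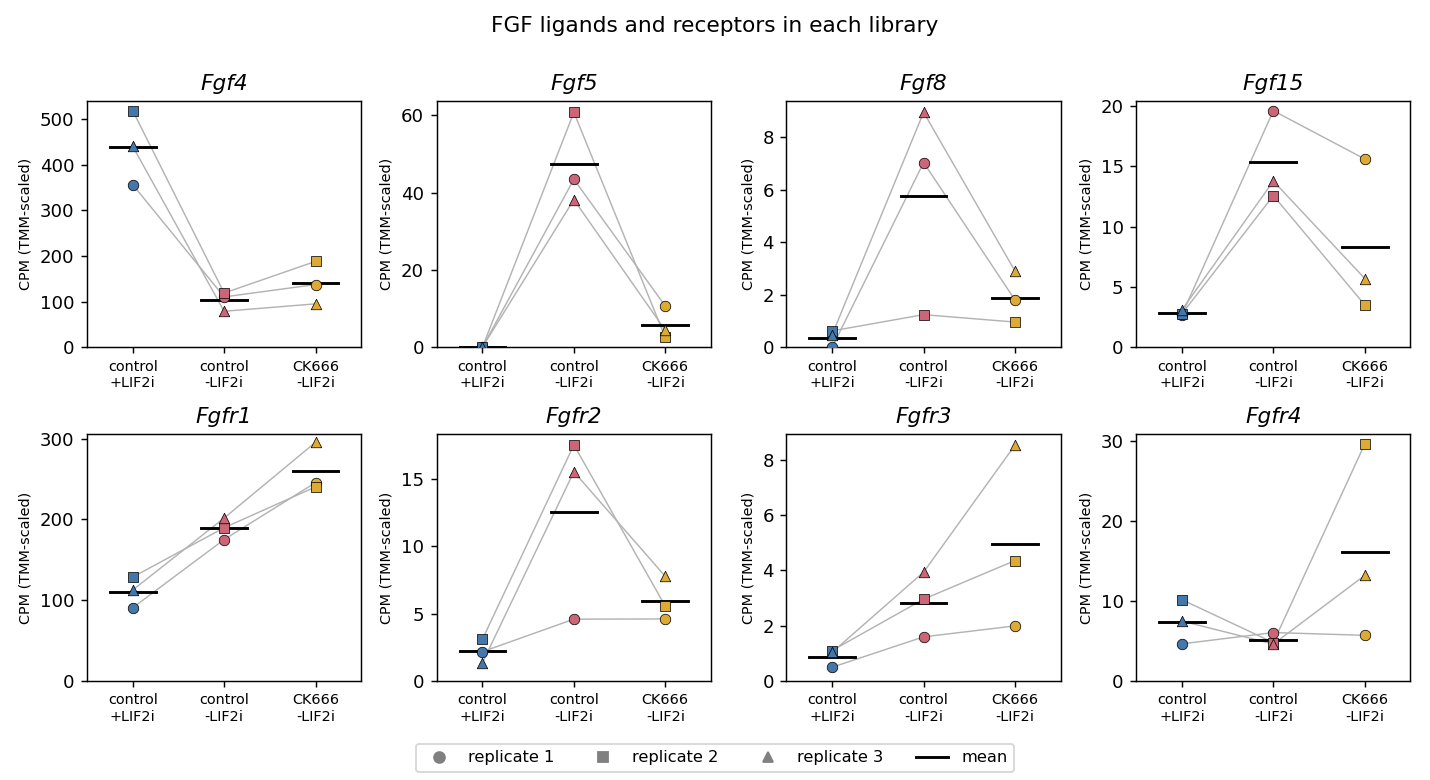
TMM-scaled CPM (linear axis from 0, a scale of its own in each panel) of each ligand and receptor in the 9 libraries. Marker shapes are replicate numbers, grey lines join libraries of the same number and black bars are means of 3 libraries; Fgf4 is highest with LIF2i, Fgf5 is highest in the control cells without LIF2i, and Fgfr1 is highest with CK666.

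Cells withdrawn in the presence of CK666 had much less Fgf5 RNA than control cells withdrawn for the same time, and this was the only member called. That is 1 of 8 genes, lowered, where 2.05% of all genes tested were called, 1.15% raised and 0.894% lowered. The median log2 fold change was -0.26 over the 8 genes and 0.02 over all genes tested. The other 7 genes are given with their intervals, since a missed threshold does not show that they stayed the same. This comparison shares its control libraries with the one above, so the values of both are set side by side without being correlated.

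For Fgf5 the libraries with CK666 held 225, 45 and 79 counts, or 10.7, 2.55 and 4.41 CPM, against 43.4, 60.7 and 38.2 CPM in the controls without LIF2i. The highest library with CK666 was below the lowest control. Within pairs the controls were 4.07, 23.8 and 8.65 times higher. The fold change on the log2 scale came to -3.16 (SE 0.43, 95% interval -4.15 to -2.18, blocked edgeR adjusted p 0.021, unblocked 0.26). It passed in 10 of 17 alternatives, with adjusted p from 3.8e-04 to 0.34. The call was lost without replicate 2 (-2.56, adjusted p 0.081) and without replicate 3 (-3.21, adjusted p 0.34) of all groups, and without either of these numbers in the control or the CK666 group (-3.25 to -2.53, adjusted p 0.068 to 0.15). Fgf5 with CK666 still exceeded its level with LIF2i, with a ratio of summed and scaled counts of 345 (95% counting interval 61.4 to 13650).

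The other ligands that rose on withdrawal also had lower means with CK666, but were not called. Fgf8 stood at 1.8, 0.963 and 2.90 CPM with CK666, lower than its control in 3 of 3 pairs, with overlapping groups (log2 fold change -1.52, SE 0.79, 95% interval -3.29 to 0.25, edgeR adjusted p 0.32). Without the replicate 1 control it was -0.80, and without the replicate 2 control -2.12 (edgeR adjusted p 0.73 and 0.32). Fgf15 stood at 15.6, 3.51 and 5.70 CPM. The replicate 1 library was at 0.796 of its control and the others at 0.280 and 0.414. Its log2 difference was -1.05 (SE 0.36, 95% interval -1.86 to -0.24, edgeR adjusted p 0.15). Without the replicate 1 libraries it was -1.56 and called (edgeR adjusted p 0.0069). Leaving out the replicate 1 library of the group with LIF2i, or that with CK666, also gave a call (-1.12, adjusted p 0.027, and -1.67, adjusted p 0.038).

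Fgf4 stood at 138, 188 and 95.2 CPM with CK666, above its control by 1.25, 1.58 and 1.21 times, and the groups overlapped. The difference in log2 units was 0.42 (SE 0.17, 95% interval 0.03 to 0.81, edgeR adjusted p 0.22). It passed in 0 of 17 alternatives, with a smallest adjusted p of 0.072 and an unadjusted 95% interval above 0.

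Among the receptors, Fgfr1 stood at 245, 240 and 295 CPM with CK666, above the highest control in every library. Groups were apart in 2 of the 8 genes, Fgf5 and Fgfr1, and in 16.5% of all genes tested. The fold change on the log2 scale came to 0.46 (SE 0.13, 95% interval 0.18 to 0.75, edgeR adjusted p 0.088). DESeq2 called it (0.45, adjusted p 0.035), as did edgeR without the replicate 1 library of the group with LIF2i (adjusted p 0.027).

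Fgfr2 stood at 4.6, 5.55 and 7.76 CPM with CK666. In replicate 1 this was 1.00 times the control, and in replicates 2 and 3 it was 0.316 and 0.499 times. The difference in log2 units was -0.94 (SE 0.41, 95% interval -1.87 to -0.01, edgeR adjusted p 0.25), and -1.32 without the replicate 1 libraries (edgeR adjusted p 0.033).

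Fgfr3 stood at 1.99, 4.36 and 8.55 CPM with CK666, higher than its control in 3 of 3 pairs but overlapping it (log2 fold change 0.70, SE 0.35, 95% interval -0.10 to 1.49, edgeR adjusted p 0.31). Fgfr4 stood at 5.69, 29.6 and 13.2 CPM, or 0.943, 6.20 and 2.87 times the control. Its log2 difference was 1.36 (SE 0.43, 95% interval 0.39 to 2.34, edgeR adjusted p 0.13). It was called by DESeq2 (1.34, adjusted p 0.021) and without the replicate 1 libraries (2.08, edgeR adjusted p 0.0030).

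The replicate 1 pair thus showed the smallest difference of the 3 pairs in 5 of the 8 genes, Fgf5, Fgf15, Fgfr2, Fgfr3 and Fgfr4, the middle one in Fgf4 and Fgfr1, and the largest in Fgf8. Without replicate 1, 4 of the 8 genes were called in this comparison, 1 raised and 3 lowered, and 1811 of all genes.

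**Figure D2:**
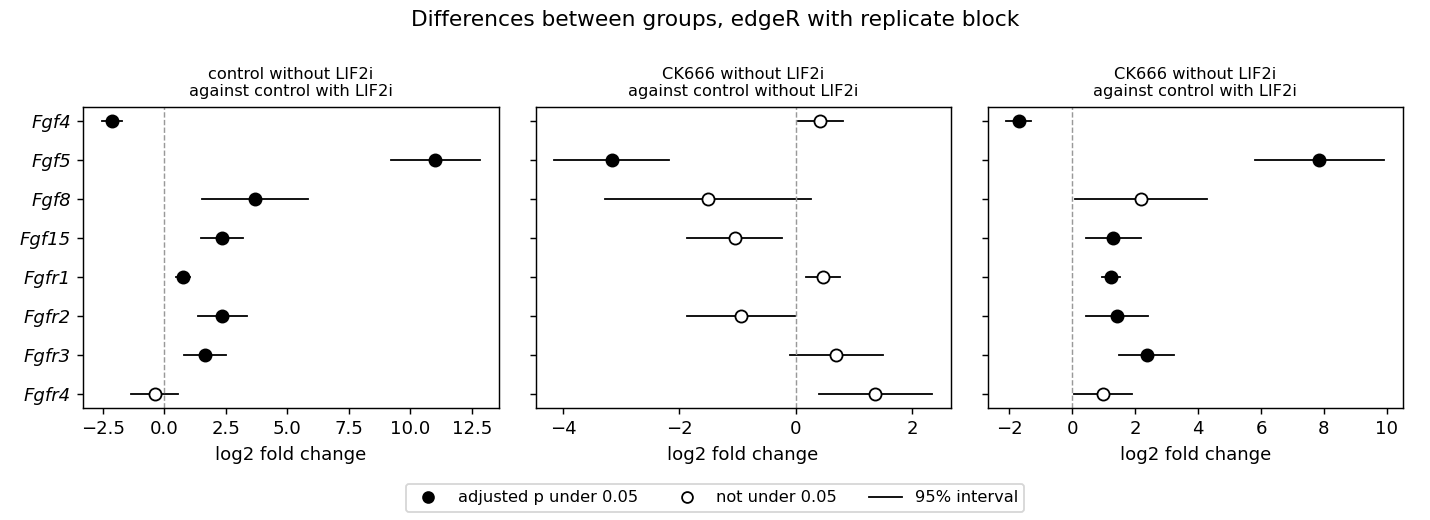
Log2 fold changes with 95% intervals of the 8 genes in the 3 comparisons, from edgeR with the replicate block; filled circles are genes with an adjusted p under 0.05 and each panel has its own axis. Against the control without LIF2i, Fgf5 at -3.16 is the one filled circle; the sizes drawn for Fgf5 in the outer panels depend on a single count with LIF2i.

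Set against self-renewing cells, CK666 cells had 6 genes called, all of those called on withdrawal apart from Fgf8, with Fgf4 lower and Fgf5, Fgf15, Fgfr1, Fgfr2 and Fgfr3 higher. Of all genes tested 36.9% were called in this comparison, 19.8% raised and 17.1% lowered. Groups did not overlap in 7 of the 8 genes, Fgfr4 being the exception, against 37.3% of all genes tested. The 2 comparisons share the libraries with LIF2i. Fgf4 changed by -1.69 (SE 0.18, edgeR adjusted p 0.00012), beside -2.11 in control cells. Fgfr1 changed by 1.24 (SE 0.13, edgeR adjusted p 0.00011), beside 0.78. Fgf15 changed by 1.31 (SE 0.39, blocked edgeR adjusted p 0.025, unblocked 0.057), beside 2.36, and was not called without replicate 1 (0.63, adjusted p 0.10). Fgfr2 changed by 1.42 (SE 0.44, blocked edgeR adjusted p 0.031, unblocked 0.082), beside 2.36, and passed in 9 of 17 alternatives. Fgfr3 changed by 2.37 (SE 0.39, edgeR adjusted p 0.0014), and by 1.12 with the length correction (adjusted p 0.145). Fgf8 was at 2.18 (SE 0.93, edgeR adjusted p 0.097) and Fgfr4 at 0.99 (SE 0.41, edgeR adjusted p 0.091), and DESeq2 called both (adjusted p 0.022 and 0.045). Without the replicate 1 library with LIF2i, Fgf8 was at 1.37 (edgeR adjusted p 0.14), and without that of replicate 2 at 3.70 (edgeR adjusted p 0.014).

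Levels of different genes can be compared only per length, and for this the deposited TPM, which are scaled by transcript length, were summed per gene. With LIF2i, Fgf4 led at 217 ± 10.2 TPM (SD, n = 3), followed by Fgfr1 at 52.4 ± 12.4, Fgfr4 at 5.36 ± 0.800 and Fgf15 at 2.51 ± 0.397, and none of these ranges touched its neighbour. Fgfr2 at 1.36 ± 0.259, Fgfr3 at 1.09 ± 0.361, Fgf8 at 0.643 ± 0.592 and Fgf5, at 0 to 0.0363 TPM, came last, with each range overlapping the next. Fgf4 made up 98.4% to 98.7% of the summed TPM of the 4 ligands.

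Without LIF2i the receptor Fgfr1 stood first, at 80.4 ± 2.97 TPM, above Fgf4 at 53.3 ± 13.2 and Fgf5 at 35.7 ± 8.0. The ranges of Fgf4 and Fgf5 overlapped, but only with the short transcript of Fgf5 counted. The full-length Fgf5-201 was at 29.0, 34.2 and 21.6 TPM. The main transcript Fgf4-201 was at 62.9, 55.5 and 37.4 TPM, above that range in every library. Fgf15 at 14.2 ± 5.26, Fgf8 at 11.4 ± 7.84 and Fgfr2 at 7.71 ± 4.92 overlapped in sequence. Fgfr4 at 2.71 ± 0.639 and Fgfr3 at 1.65 ± 0.591 overlapped each other, and Fgfr4 lay below the range of Fgfr2 but overlapped that of Fgf8, which was at 2.68 TPM in replicate 2. Fgf4 made up 46.5%, 51.4% and 40.9% of the ligand TPM, and Fgf5 29.0%, 36.7% and 28%. These Fgf5 shares include the TPM on its short transcript.

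With CK666, Fgfr1 stood at 107 ± 13.3 TPM and Fgf4 at 70.5 ± 21.7, and their ranges were apart. Fgf15 at 7.78 ± 6.82, Fgfr4 at 7.58 ± 5.93, Fgf5 at 4.57 ± 4.17, Fgf8 at 3.89 ± 2.13, Fgfr3 at 2.59 ± 1.93 and Fgfr2 at 2.57 ± 0.747 each overlapped the next. Fgf4 again made up most of the ligand TPM, 73.0%, 92.9% and 77.1%, and Fgf5 9.0%, 1.8% and 4.37%. These shares are descriptive and were not tested. The summed ligand TPM was 209 to 229 with LIF2i, 94.7 to 139 without and 60.4 to 104 with CK666, while that of the receptors was 48.8 to 75.2, 85.4 to 100.5 and 112 to 134. A TPM is raised by reads assigned to short transcripts: for Fgfr4 with LIF2i, 67.4%, 24.0% and 38.9% of the TPM lay on transcripts shorter than 1000 bases, and for Fgfr3 98.2%, 62.0% and 80.8%. For Fgfr2 without LIF2i these shares were 52.9%, 55.1% and 3.45%, and for Fgfr1 with LIF2i they were 41.7%, 15.0% and 5.34%. For Fgf8 without LIF2i they were 6.45%, 49.6% and 51.0%. For Fgf5 they were 27.7%, 15.7% and 18.5% in the controls without LIF2i, and 27.9%, 19.0% and 0% with CK666.

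**Figure D3:**
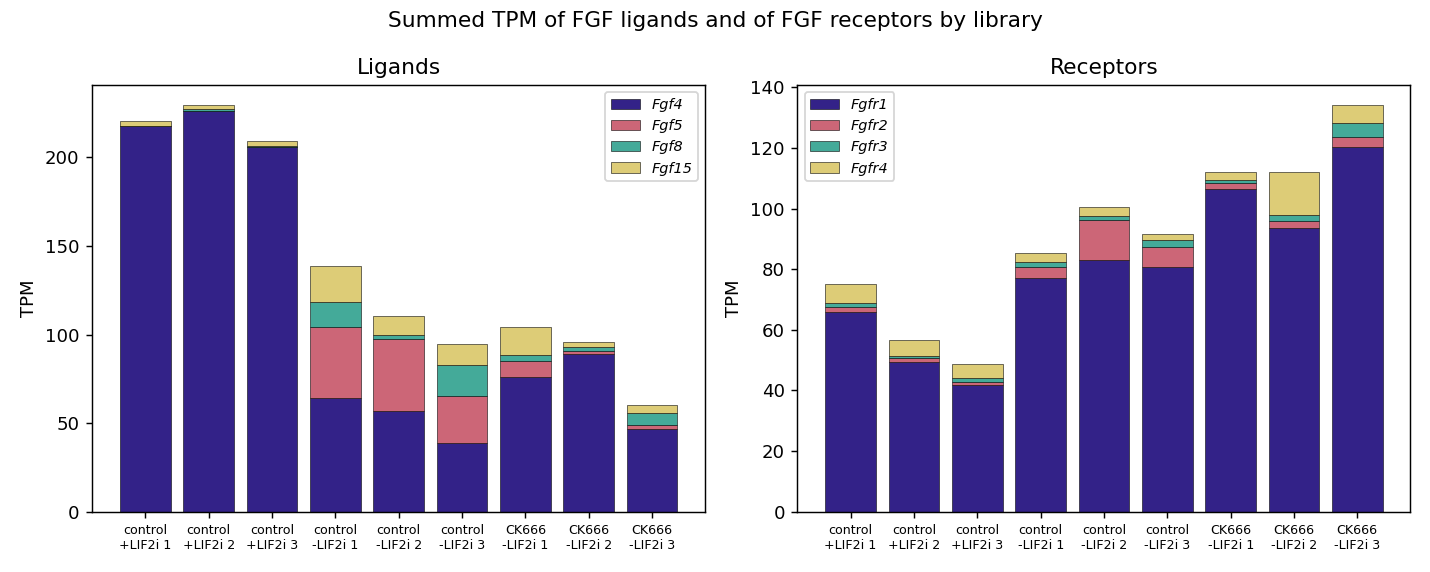
Summed TPM (linear axis from 0) of the 4 ligands on the left and the 4 receptors on the right, stacked by gene, in each of the 9 libraries. The ligand bars with LIF2i are almost wholly Fgf4, Fgf5 forms a visible block in the control cells without LIF2i, and Fgfr1 forms most of every receptor bar.

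Among counts that fell on transcripts with one of the alternative exons, most were of the IIIc form. Transcripts were classed by whether they hold the IIIb or the IIIc exon of their receptor with exactly its annotated ends, and the share of IIIc was taken over counts of transcripts with exactly one of them. For Fgfr1 the IIIc share was 99.7% to 100% in every library, on 1840 to 5290 counts of the gene. Where exons held within longer ones were counted too, a setting chosen after seeing the data, the share was 98.2%, 98.7% and 99.3% with LIF2i and 99.4% to 100% in the other groups. The main transcripts were Fgfr1-202, with 68.3% of the counts, and Fgfr1-201, with 18.9%. A transcript annotated with both exons, as a target of nonsense-mediated decay, held 6.5% and was left out of the share.

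Fgfr2 was the receptor with a visible IIIb part. Its IIIc share was 100%, 92.6% and 90.3% with LIF2i, 100%, 73.3% and 69.0% without, and 100%, 74.9% and 71.8% with CK666. In the control cells without LIF2i, IIIb transcripts held 0, 69.7 and 84.0 estimated counts beside 35.0, 192 and 187 of IIIc. Transcripts with neither or both exons, left out of the share, held 33.7%, 30.5% and 15.7% of the counts with LIF2i, 63.1%, 22.7% and 6.02% without, and 34.3%, 6.1% and 3.3% with CK666. In the replicate 1 libraries of all groups no whole count fell on IIIb. The share differed by -13.5 percentage points between controls without and with LIF2i (exact permutation test, two-sided, p 0.30), and by -20.3 without the replicate 1 libraries. It differed by 1.45 points between CK666 and control cells (exact permutation test, two-sided, p 0.80), and by 2.17 without replicate 1 and 0.785 without replicate 3. Within pairs the differences were 0, -19.2 and -21.3 points on withdrawal and 0, 1.57 and 2.78 for CK666 against control. The exact test by sign flips of these differences, rounded to 0.01 points and chosen after seeing the data, gave a two-sided p of 0.50 for both. In general 3 pairs cannot go below 0.25, and with the replicate 1 difference at 0 the smallest possible p was 0.50. The paired test could therefore not decide whether the share differed.

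For Fgfr3 the IIIc share was 100% in all libraries without LIF2i, on 25.5 to 137 counts of IIIc. With LIF2i it was 100%, 100% and 76.4%, on 1.16, 17.0 and 10.8 counts of IIIc and, in replicate 3, 3.34 of IIIb, so that the first of these shares rests on about 1 count. Over the 9 exact permutation tests of these shares, the smallest p that 3 against 3 libraries allow is 0.10, the smallest seen was 0.30, and all adjusted p were at least 0.90.

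**Figure D4:**
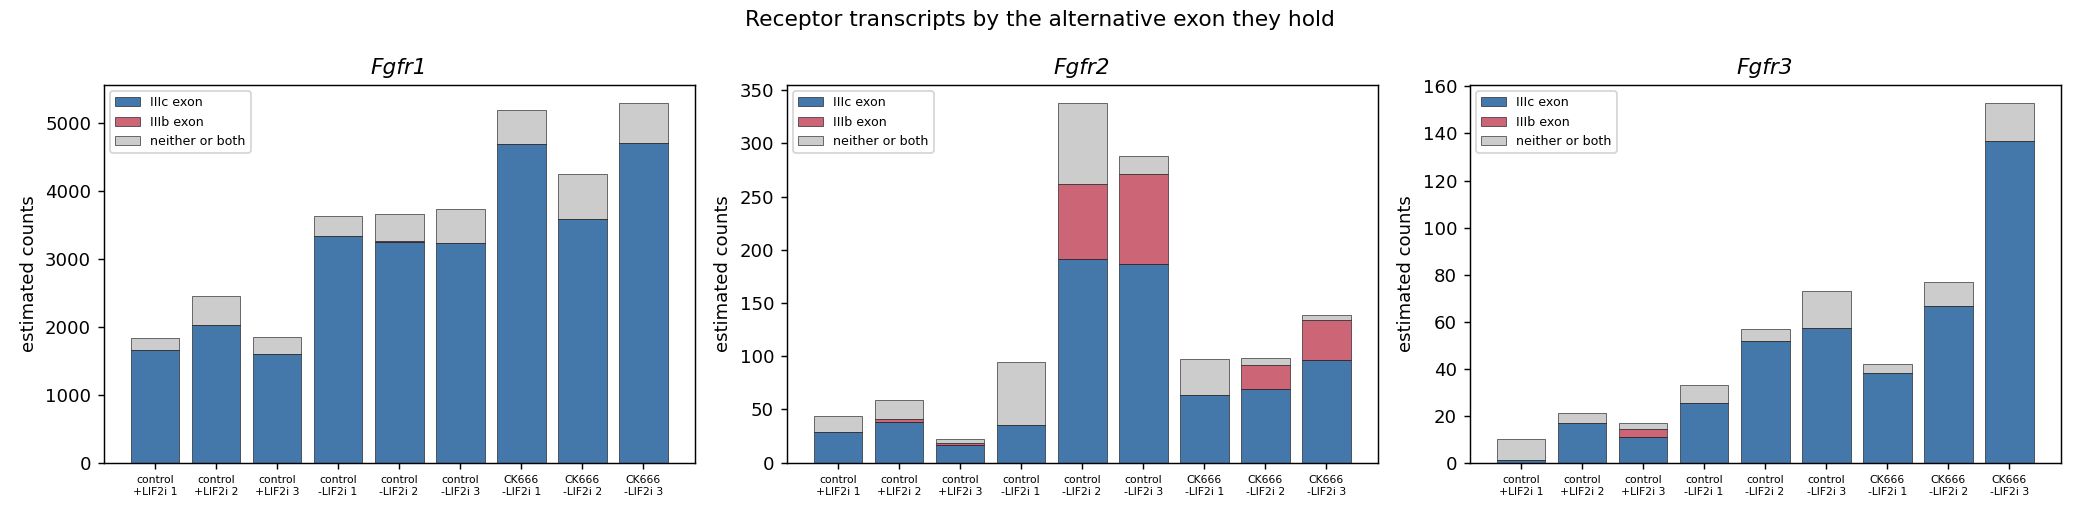
Estimated counts (linear axis from 0) of Fgfr1, Fgfr2 and Fgfr3 in each library, split into transcripts with the IIIc exon, the IIIb exon, or neither or both. IIIb counts are visible for Fgfr2 in replicates 2 and 3 without LIF2i, and nearly absent for Fgfr1.

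For each gene the protein-coding genes with the most similar pattern were taken by the smallest root mean square difference of centred log2 CPM over the 9 libraries, among 9496 genes whose mean log2 CPM reached 3. This is a description over libraries that share groups and replicates. Fgf4 was matched most closely by Myh7b (0.20) and Lifr (0.22), the receptor subunit for LIF. The values depend on how much a gene itself varies, with a standard deviation over the libraries from 0.568 for Fgfr1 to 3.79 for Fgf5, and are not comparable between the 8 genes. Fgfr1 was matched by Peg3 (0.10) and Insr (0.14), the insulin receptor. Fgf15 was matched by Zic2 (0.27) and Ndn (0.31), Fgfr2 by Clu (0.34) and Cnn2 (0.37), Fgfr3 by Hmgn5 (0.30) and Bend7 (0.31), and Fgfr4 by Txndc16 (0.35) and Slc25a33 (0.41). Fgf5 was matched by the splicing regulator Esrp1 (1.23) and the transcription factor Sox3 (1.31), and Fgf8 by Arhgef5 (0.79) and Amot (0.85). Esrp1 rose from 0.949 to 114 CPM on withdrawal and was at 51.0 CPM with CK666, a smaller difference than for Fgf5, which went from 0.0202 to 47.4 and 5.87 CPM.

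Among 79 other genes of the pathway, in 5 lists, 68 passed the filter. Of 14 other secreted ligands, 5 were tested, and the 2 that edgeR called on withdrawal were both lowered, where 40.7% of all genes tested were called. Fgf10 fell from 22.8 ± 5.95 to 0.616 ± 0.0516 CPM (SD, n = 3 each), a log2 difference of -5.17 (SE 0.32, edgeR adjusted p 7.0e-06), and Fgf3 fell by 1.40 (SE 0.40, blocked edgeR adjusted p 0.020, unblocked 0.13). Averaged over all 9 libraries, Fgf17 had the highest TPM of this list (4.49), while with LIF2i the 3 libraries stood at 16, 3.64 and 4.51 TPM for Fgf3, 6.91, 7.97 and 8.99 for Fgf10 and 4.06, 7.50 and 9.23 for Fgf17, so that no one gene led in all of them. Of the intracellular homologous factors, which are not secreted, 2 of 3 tested were raised, where 21.1% of all genes tested were: Fgf13 rose from 0.568 ± 0.550 to 9.32 ± 1.97 CPM and Fgf14 from 0.0405 ± 0.0701 to 1.91 ± 0.519 CPM. With LIF2i the mean of Fgf14 was below the floor of detection, and Fgf13 stood at 0, 0.578 and 0.554 TPM. For these genes, passing the filter and being raised are therefore not independent. Neither list had a gene called by edgeR between CK666 and control cells, and 0 of their 8 tested genes had an unadjusted p under 0.05 there.

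Among 27 tested co-receptors, receptor-like proteins and genes of heparan sulphate, withdrawal raised 9 and lowered 4, with a median of 0.05, where 40.7% of all genes tested were called. Hs6st2, which adds sulphate to heparan chains, rose from 0.0782 ± 0.0938 to 10.4 ± 4.31 CPM, and the surface proteoglycan Gpc1 from 28.3 ± 10.2 to 107 ± 27.5 CPM. The sulphatases Sulf1 and Sulf2 went in opposite directions, by 1.8 (SE 0.22) and -0.60 (SE 0.13), with edgeR adjusted p of 2.5e-04 and 0.0057. Fgfbp1, a carrier that releases FGFs from the matrix, rose from 0.194 ± 0.215 to 14.9 ± 11 CPM. With CK666 Fgfbp1 was at 2.89 ± 1.51 CPM and was the only one of the 27 called against control cells, where 2.05% of all genes tested were called. Its log2 fold change was -2.19 (SE 0.34, blocked edgeR adjusted p 0.026, unblocked 0.43, passing in 10 of 17 alternatives). Its TPM was 6.88, 21.3 and 36.6 in control cells and 1.97, 4.70 and 5.93 with CK666, lower in 3 of 3 pairs.

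In the relay from receptor to ERK, 6 of 20 genes rose and 4 fell on withdrawal, with a median of -0.04, again beside 40.7% of all genes called. Map2k1, which encodes MEK1, a target of the MEK inhibitor in LIF2i, fell by 0.52 on withdrawal (SE 0.11, blocked edgeR adjusted p 0.0038, unblocked 0.056). With CK666 it was lower again, at 83.0 ± 7.61 against 127 ± 11.4 CPM (log2 fold change -0.62, SE 0.11, blocked edgeR adjusted p 0.030, unblocked 0.36, passing in 7 of 17 alternatives). Its TPM was 83.4, 80.9 and 81.2 in control cells and 51.5, 52.6 and 54.3 with CK666, without overlap. Braf, a kinase above MEK, was higher with CK666, at 129 ± 31.8 against 85.3 ± 9.77 CPM (0.57, SE 0.11, blocked edgeR adjusted p 0.038, unblocked 0.43, passing in 5 of 17 alternatives). With the length correction Braf was at 0.38 (edgeR adjusted p 0.18).

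Among 13 feedback inhibitors and transcription factors downstream of FGF, 9 were called by edgeR on withdrawal, all raised, where 40.7% of all genes tested were called. At an unadjusted p under 0.05 there were 10, and the median over the list was 1.90 on the log2 scale. The phosphatase genes Dusp6 and Dusp4 rose by 3.95 (SE 0.50, edgeR adjusted p 7.3e-04) and 3.55 (SE 0.28, edgeR adjusted p 2.9e-05), and the Sprouty gene Spry4 by 2.70 (SE 0.44, edgeR adjusted p 0.0017). Egr1 was also called as raised, from a low mean of 0.143 TPM with LIF2i. Its rise ran from 4.92 to 5.74 over the alternatives and passed in 17 of 17. Etv5, the gene with the highest TPM of the list, was at 0.28 (SE 0.16, edgeR adjusted p 0.20). With CK666, Egr1 was the one gene of the 13 called, where 2.05% of all genes tested were, at 1.42 ± 0.668 against 13.3 ± 10.2 CPM (log2 fold change -3.07, SE 0.42, blocked edgeR adjusted p 0.019, unblocked 0.27, passing in 11 of 17 alternatives). Dusp6 was at -0.65 (SE 0.44, edgeR adjusted p 0.47), Spry4 at -0.59 (SE 0.41, adjusted p 0.47) and Dusp4 at 0.23 (SE 0.25, adjusted p 0.66) in that comparison. Against self-renewing cells 9 of the 13 were called with CK666, all raised, where 36.9% of all genes tested were called, while at an unadjusted p under 0.05 there were 11 raised and 1 lowered. Egr1 was among the 9, at 1.69 to 2.79 over the alternatives, passing in 17 of 17.

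**Figure D5:**
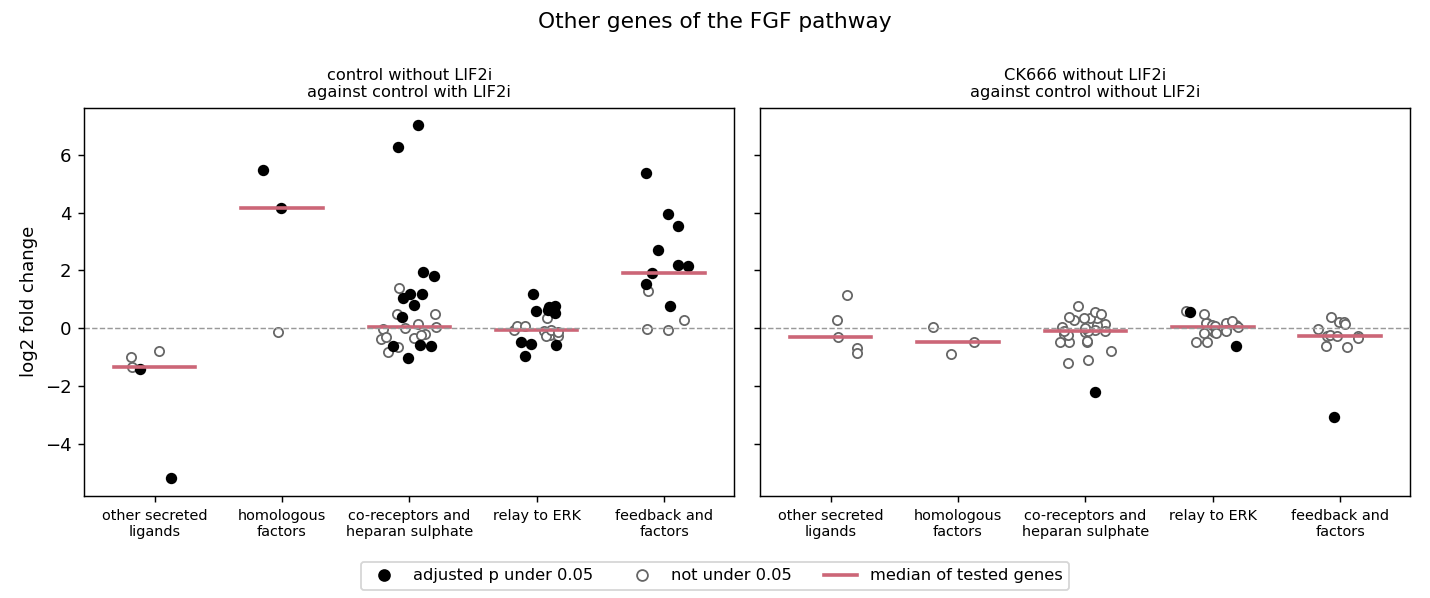
Log2 fold changes of tested pathway genes outside the 8, by list, for withdrawal on the left and for CK666 against control without LIF2i on the right; filled points have an adjusted p under 0.05 and red bars are list medians. The feedback list has its median at 1.90 on the left, while on the right 4 points in all are filled.

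The labelled cell type was checked against marker lists. All 6 markers of embryonic stem cells had a mean above 1 TPM in every group, with a summed level of 2839 to 2878 TPM with LIF2i, 2341 to 2833 without and 2215 to 2883 with CK666. Pou5f1 had the highest TPM of the 6 in every library, and the others moved both ways: on withdrawal edgeR called Utf1 and Lin28a as raised and Sox2, Nanog and Sall4 as lowered. Summed levels of the markers of other cell types were lower. The 6 primitive endoderm markers summed to 4.80 to 9.07, 9.58 to 30.4 and 11.9 to 23.2 TPM in the same order of groups, with Gata4 and Dab2 above 1 TPM in each group. Of these, edgeR called only Dab2 on withdrawal, as raised. The 5 fibroblast markers summed to 4.4 to 7.32, 23.9 to 30.0 and 14.5 to 24.4 TPM, with Lum at 0 in all libraries with LIF2i and with CK666. The 4 that were tested, Col1a1, Col1a2, Dcn and Thy1, were all called by edgeR as raised on withdrawal, where 21.1% of all genes tested were. With CK666 against control with LIF2i, 3 of them were, Col1a2, Dcn and Thy1, beside 19.8% of all genes tested. The 5 markers of primitive streak and mesoderm summed to 3.85 to 8.31, 4.51 to 9.70 and 2.30 to 4.82 TPM, with Mesp1 at 0 in the controls without LIF2i. T and Eomes had means above 1 TPM in those controls. Of the 3 markers tested, edgeR called Mixl1 on withdrawal, as raised. Neurog2 was at 0 in all libraries with LIF2i and with CK666. The 4 neural progenitor markers summed to 4.37 to 8.36, 2.41 to 17.1 and 9.38 to 22.1 TPM. Pax6 and Sox1 had means above 1 TPM in both groups without LIF2i, and edgeR called Sox1 as lowered on withdrawal. The 5 trophoblast markers summed to 11.9 to 44, 50.4 to 122 and 37.5 to 91.2 TPM, nearly all of it Krt8, a keratin gene that epithelia share, which rose on withdrawal and reached 119 TPM without LIF2i. Of the other 4, Cdx2 and Elf5 stayed below 1 TPM, and Gata3 and Hand1 reached 2.05 and 1.26 TPM. The part of such cells in the levels of Fgf5, Fgf8, Fgf15 and the receptors was not tested.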

How the data were processed

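Transcript abundance in 9 libraries was deposited as tables of 119414 transcripts. The authors deposited estimated counts, which were not normalised and need not be whole, and TPM, scaled to a fixed sum per library, per the file headers. The deposited effective length was another value, used in a length correction. The submitters' processing notes name kallisto, sleuth, FastQC and cutadapt 1.8.1, and builds of human and mouse without a role. The transcript release, the kallisto version and the use of strand are not given in the sources used here.

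Transcripts were matched to GENCODE M21 (GRCm38) by identifier, with 116640 found (97.7%). The other 2774 held 0.895% to 1.08% of a library and were left out. Counts were summed per gene, rounded and tested with edgeR 4.0.16 in R 4.3.3 (TMM, edgeR's filter, robust quasi-likelihood, all 9 libraries, 4 residual degrees of freedom). SEs come from the test statistic. The replicate number was a block, because the series text calls the replicates paired. Deviations from group means of same-numbered libraries correlated across genes at a median of 0.41 (0.30 to 0.65), and those of differently numbered libraries at -0.37. Among the latter, replicates 2 and 3 correlated at 0.214 to 0.286, and replicate 1 with either at -0.525 to -0.354. The pattern thus mainly sets replicate 1 apart. Whether paired cultures were grown independently is not stated, so p-values measure the spread between these libraries. Intervals of ratios of counts and floors cover counting error only, while intervals of log2 fold changes come from the fit. Alternatives were the fit without the block, DESeq2 1.42.0, RLE scaling, no filter, the length correction and each library or number left out, and, for the isoform shares, a paired test and a wider exon rule added after seeing the data. The edgeR test was tried on simulated data, but no outcome of that trial is given here and no call rests on it. Members, pathway lists and markers were chosen with earlier results of these data known. Beside the members, the genes named are up to 4 raised and 4 lowered called genes per list and comparison, its most abundant gene and the 2 best matches of each member. Values of 1 gene of the relay list and some exon sequences are not reported here.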

Additional observations from a re-analysis of the deposited data

How the results depend on the processing

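Without the replicate block, 3509, 0 and 2966 genes were called on withdrawal, between CK666 and control without LIF2i and between CK666 and control with LIF2i, and with it 5967, 300 and 5408. For CK666 against control, the 0 calls of edgeR compare with 1251 genes at an unadjusted p under 0.05. Of the 8 FGF genes, 0 were called there without the block and 3 by DESeq2, beside 1 in edgeR with the block. DESeq2 called 1140 genes in that comparison, edgeR without the expression filter 565 and edgeR with the length correction 148. With libraries or replicate numbers left out, the counts of genes ran from 3099 to 6588, from 0 to 1811 and from 2413 to 6129. Those of the FGF genes ran from 5 to 8, from 0 to 4 and from 3 to 7. The lowest counts of genes came without replicate 3, where 0 calls for CK666 compare with 1360 genes at an unadjusted p under 0.05. Over 24 log2 fold changes of FGF genes and 17 alternatives, 361 of 408 values kept direction and side of the threshold, 30 lost the call, 16 gained one and 1 changed sign. That one was Fgfr4 on withdrawal, which ran from -1.01 to 0.061 with libraries left out and was 0.061 (edgeR adjusted p 0.93) without the replicate 2 library of the controls without LIF2i, beside -0.38. The cause was not tested. With libraries left out, the IIIc share of Fgfr2 differed by -20.3 to -9.61 points on withdrawal and by 0.785 to 2.17 for CK666 against control. Counting exons held within longer ones moved the differences in the IIIc share of Fgfr1 to 1.21 points on withdrawal, 1.04 for CK666 against control with LIF2i and -0.17 against control without (exact permutation test, two-sided, p 0.10, 0.10 and 0.70, where 0.10 is the smallest possible), because 1 transcript then counts as IIIb and 1 as IIIc. By share of TPM, the IIIc share of Fgfr3 was 24.0 percentage points higher in either group without LIF2i than with it, beside 7.87 by counts, and 0.0094 and 0.0010 without replicate 3, so that both values rest on the replicate 3 library with LIF2i. Counts of 0 to 21 per library for Fgf5, Fgf8 and Fgfr3 with LIF2i limit the size of their changes.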
